A study of Mus musculus with 8 samples.

Results

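The 36 genes described here are those of glycolysis and of the response to low oxygen, measured by RNA-seq in Lewis lung carcinoma (LLC) tumors whose cancer cells carried or lacked Ago2. They were chosen by name, as the rows of the gene count table whose identifier carries a listed symbol, and were read in 3 role groups: 16 glycolytic enzymes, 6 genes of sugar and lactate transport or of control of the pathway, and 14 other hypoxia genes. All 36 were found among the 55487 rows, in 37 rows because Aldoa has 2 identifiers, and all 36 passed the filter on low counts that left 16061 genes to test. LLC is a mouse lung cancer line. Cells were implanted subcutaneously in C57BL/6J mice, which the study bought as females 6 to 8 weeks old, and tumors were taken at day 12 after implantation. Of the 8 tumors, 4 grew from wild-type cells and 4 from cells labelled as Ago2 knock-out (ΔAgo2), each in another mouse. Ago2 encodes Argonaute 2, which holds small RNAs and cuts or silences matching transcripts. The knock-out cells were made with a lentiviral CRISPR guide, selected with puromycin and cloned from single cells, so what is particular to a clone and what is due to the genotype cannot be told apart. The host cells inside every tumor kept Ago2.

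Glycolysis turns glucose into pyruvate in the cytosol, and a tumor that lacks oxygen relies on it for ATP. In cells short of oxygen, the α subunits of the hypoxia-inducible factors escape the prolyl hydroxylases that mark them for destruction, pair with their β partner and bind hypoxia response elements near genes for glucose uptake, glycolysis, lactate export, blood vessel growth and pH control. The abundance of HIF-1α is set mainly at the protein level, so the level of the Hif1a transcript is not a measure of the pathway's activity.

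Depth ran from 7903288 to 268564145 counts per tumor. Levels in CPM are counts scaled to a normalized library total of 1e+06. In the shallowest library, wild-type tumor 4, a gene with 0 counts could be present at up to 0.43 CPM. Libraries of a group differed by more than sampling noise. They also differed in how counts followed the GC content of genes. The slope of log2 counts per 10% GC was 0.72 and 0.958 in wild-type tumors 2 and 4, against −0.176 to −0.058 in wild-type tumors 1 and 3 and −0.682 to −0.003 in the ΔAgo2 tumors. Ago2 transcript was not lower in the tumors labelled ΔAgo2. Its log2 fold change (ΔAgo2 minus wild type, as throughout) was 0.64 (SE 0.30, edgeR quasi-likelihood adjusted p = 0.205), with 2 of 26 alternatives past the threshold. It therefore does not check the labels. Of 8 carcinoma markers, the keratins Krt8 and Krt18 made up most of the summed level, which was 501.4 to 1260.6 CPM in wild-type and 716.7 to 1249.6 CPM in ΔAgo2 tumors. Nkx2-1, which marks lung epithelium, was at 0 in all tumors.

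To show what a hypoxia response element looks like in these genes, the RefSeq promoter windows of GRCm38.p6, 250 bases before to 50 bases after a gene start, were searched for its core, ACGTG or GCGTG, on both strands. At the palindrome CACGTG a core is read on each strand. The 4 members with the largest absolute fold change that hold a match are shown, each as 25 bases around the match nearest a gene start, 5′ to 3′ on the strand of the gene and with the core in capitals. Positions after a start count the start as base 1. A core on the other strand is read here as CACGT or CACGC.
Hif1a (chr12:73907787-73907811, plus strand, core centred 68 bases before the start): gctgagagcaACGTGggctggggtg
Aldoc (chr11:78323074-78323098, plus strand, core centred at base 14): aggtatctgtCACGCccccagggag
Pfkm (chr15:98092595-98092619, plus strand, core centred at base 19): ccagaaagatCACGTtagggtatac
Pfkp (chr13:6648780-6648804, minus strand, core centred 21 bases before the start): ctcgggcgggGCGTGggcggctcct
Of the 36 members, 33 had a window in the table, 48 windows in all. At least 1 core was present in 39 of these 48 windows (81.2%), against 14380 of all 32851 windows (43.8%) and 49.3% of the windows of protein-coding genes. ACGTG alone was present in 27 member windows (56.2%), in 19.6% of all windows and in 20.9% of those of protein-coding genes. Among the 12 other hypoxia genes with a window, every gene held a core, as did 13 of 16 glycolytic enzymes (81.2%), against 46.7% of all genes with a window and 52.3% of protein-coding genes. Gpi1, Tpi1 and Eno2 were the enzymes with no match. A match is a description of the letters in this window and not a measured binding site. Both cores hold the letters CG, and the sets compared were not matched for the GC content of their windows. Nor were they matched for windows per gene, with 27 for the 16 enzymes and 32851 for all 27025 genes. The part of either in the shares was not tested.

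The glycolytic enzymes were the most abundant members. Levels between genes were compared in TPM, which divide counts by gene length and scale each library to the same total. Gapdh, which oxidises glyceraldehyde-3-phosphate, led with a mean of 2531.1 TPM over the 8 tumors. Pkm, the pyruvate kinase gene of most tumors, followed at 1803.7 TPM, and Ldha, which makes lactate from pyruvate, at 1421.4 TPM. Gapdh exceeded Pkm in 8 of 8 tumors, Pkm exceeded Ldha in 7, and Ldha exceeded Aldoa in 6. Aldoa (1372.9 TPM), Tpi1 (1178.7 TPM) and Eno1 (1067.0 TPM) came next, so that 6 enzymes stood above 1000 TPM. Below them, Pgam1 and the oxygen sensor gene Egln3 could not be ordered, at 333.3 and 333.0 TPM, each higher in 4 of 8 tumors. Together the 16 enzymes took 1.02 to 1.21% of all TPM in wild-type tumors and 0.931 to 1.20% in ΔAgo2 tumors, overlapping ranges. Transport and control genes were led by the glucose transporter Slc2a1 at 311.7 TPM, which made up 96.2 to 98.9% of the summed TPM of Slc2a1 and Slc2a3. The other hypoxia genes ranged from Egln3 at 333.0 TPM down to Car9, a carbonic anhydrase that acidifies the space around hypoxic cells, at 4.08 TPM, the lowest of the 36.

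**Figure D1:**
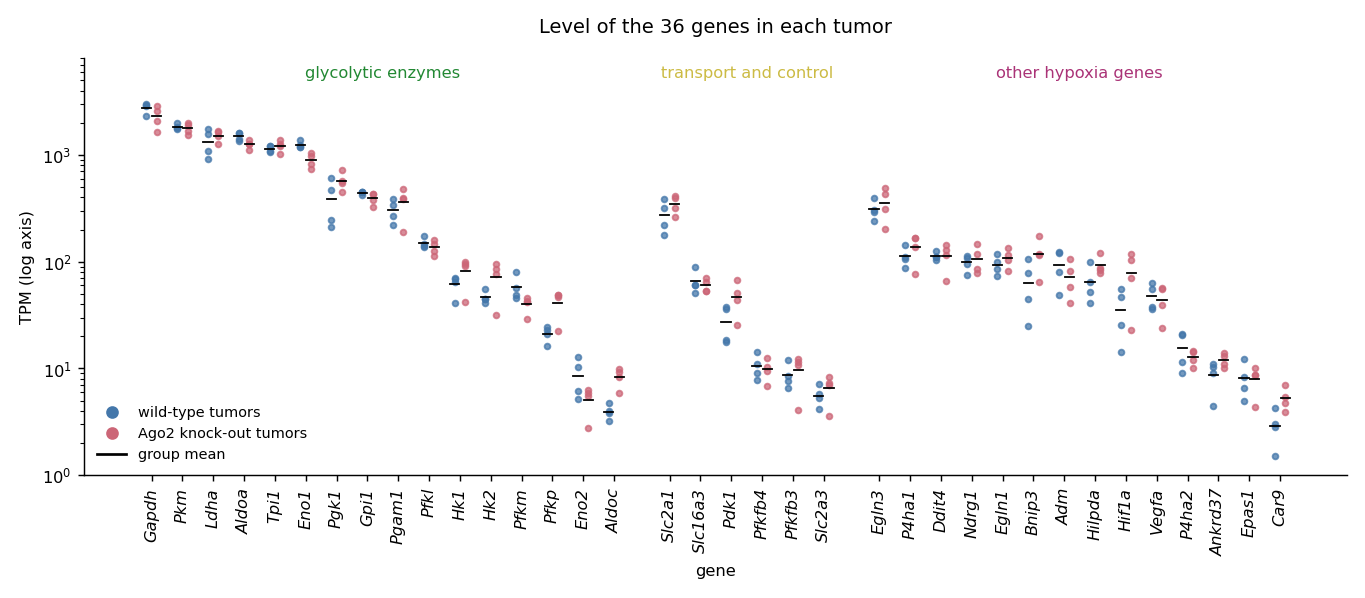
Level of the 36 genes in TPM on a log axis, with a point for each of the 4 wild-type (blue) and 4 ΔAgo2 (red) tumors and a bar for the group mean, ordered by mean level within each role group. Gapdh, Pkm, Ldha, Aldoa, Tpi1 and Eno1 lie above 1000 TPM on average and Car9 is lowest, at 4.08 TPM.

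Whether loss of Ago2 in the cancer cells went with a different glycolytic or hypoxic program was addressed by comparing the genotypes gene by gene. No member of the 36 passed the test (edgeR quasi-likelihood, Benjamini-Hochberg adjusted p under 0.05 over all 16061 genes), against 560 genes of all tested, or 3.49%. On simulated counts this test recovered 6.06% of genes changed by 1 on the log2 scale. The lack of calls therefore does not show that changes of that size were absent. At an unadjusted p under 0.05 there were 7 members (19.4%), against 26.7% of all genes tested. DESeq2 called 5 members (13.9%, against 14.3% of all genes) and limma voom with quality weights called 6 (16.7%, against 27.9%). By each of these counts the share among the members was not above that among all genes. The median log2 fold change was −0.19 for the glycolytic enzymes, −0.07 for transport and control and −0.02 for the other hypoxia genes, beside 0.04 for all genes. Fold changes were above 0 in 6 of 16 enzymes, 2 of 6 transport and control genes and 7 of 14 other hypoxia genes. The median of the enzymes turned to 0.06 once each library's GC trend was removed, with that of all genes at −0.01. On the log2(TPM + 1) scale it was 0.01, with that of all genes at 0.21, so it lay below the median of all genes as in the edgeR fit.

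**Figure D2:**
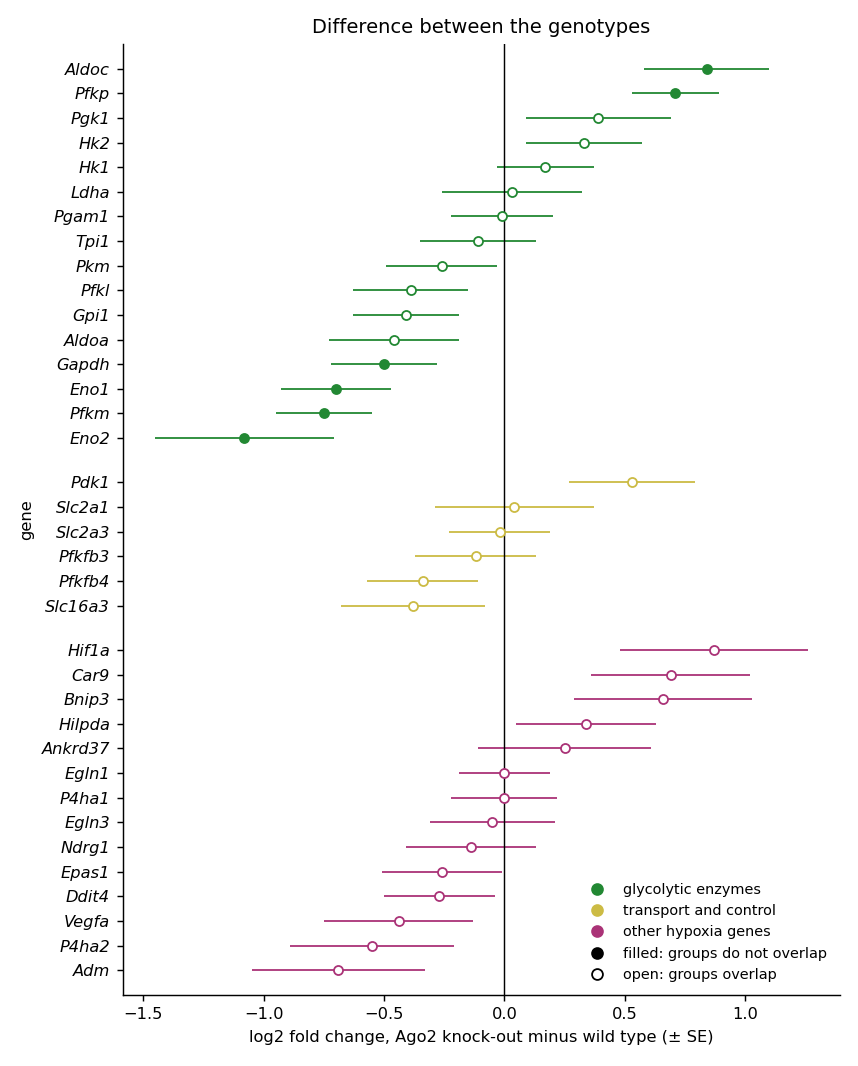
Log2 fold change (ΔAgo2 minus wild type) of each of the 36 genes with its standard error (bars), by role group, from the edgeR fit to 4 against 4 tumors. Filled points mark the 6 genes, all of them glycolytic enzymes, whose CPM did not overlap between the groups. No gene passed an adjusted p of 0.05, and values ran from −1.08 (Eno2) to 0.87 (Hif1a).

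The glycolytic enzymes held the members nearest the threshold. In 6 of 16 (37.5%) the CPM of the groups did not overlap, against 16.4% of all genes, and in no gene of the other role groups. The same 6 had an unadjusted p under 0.05, against 26.7% of all genes. DESeq2 called 5 of the 16 (31.2%, against 14.3% of all genes), namely Pfkp, Pfkm, Aldoc, Eno1 and Eno2, and voom called 5 (31.2%, against 27.9%), with Hk2 in place of Eno2. In ΔAgo2 tumors 2 of the 6, Aldoc and Pfkp, were higher, as 8.05% of all genes were without overlap, and 4, Gapdh, Eno1, Pfkm and Eno2, were lower, as 8.36% of all genes were. On the TPM scale only Aldoc and Eno1 of these remained apart, 2 of the 16 enzymes (12.5%) against 11.7% of all genes tested, and no other member did.

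Phosphofructokinase commits sugar to glycolysis and is encoded by Pfkl, Pfkm and Pfkp. Pfkp, the platelet form, is described here because it had the smallest p of the 36, which was seen in the data. It measured 106.7, 99.5, 114.5 and 108.6 CPM in wild-type tumors 1 to 4 and 136, 177.6, 197.7 and 191 CPM in ΔAgo2 tumors 1 to 4. All ΔAgo2 tumors were above all wild-type tumors, and ΔAgo2 tumor 1 was the nearest to them. This was a log2 fold change of 0.71 (SE 0.18, adjusted p = 0.0594). Without ΔAgo2 tumor 1 it was 0.81 (adjusted p = 0.0199). That fit called 1793 of 16301 genes, against 560 of 16061 with all tumors. With the GC trend removed the log2 fold change of Pfkp was 0.54 (adjusted p = 0.0762), and with the trend on gene length removed it was 0.36 (adjusted p = 0.244).

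Pfkm, the muscle form, stood the other way. It measured 56.9, 66.2, 93.6 and 75.4 CPM in wild-type tumors and 44.3, 38.1, 48.9 and 42.5 CPM in ΔAgo2 tumors. Wild-type tumor 3 was the highest, and no ΔAgo2 tumor reached the lowest wild-type one. The difference was −0.75 on the log2 scale (SE 0.20, adjusted p = 0.0665). It was −0.76 without ΔAgo2 tumor 1 (adjusted p = 0.0463), in the fit that called 1793 of 16301 genes. With the GC trend removed it was −0.55 (SE 0.20, adjusted p = 0.155).

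Markers of skeletal muscle were read beside Pfkm. Of the 12, 1 passed the test (8.33%, against 3.49% of all genes), Myh2 (−2.84, SE 0.58, adjusted p = 0.0305). All 12 had a fold change below 0 (median −2.92) and an unadjusted p under 0.05 (100%, against 26.7% of all genes). In 3 of the 12 the groups did not overlap (25%, against 16.4% of all genes). The summed level of the 12 genes was 305.7, 401, 4267.3 and 580.9 CPM in wild-type tumors 1 to 4 and 232.1, 58.9, 247.4 and 193 CPM in ΔAgo2 tumors 1 to 4, so that the groups did not overlap and wild-type tumor 3 stood far above the rest. Its most abundant gene, the actin gene Acta1, was at 1428.9 CPM in that tumor and at 223.3 CPM or less in the others, and none of the 12 was at 0 in all tumors. The muscle forms Pgam2 and Eno3, named after their values were seen, were also highest in wild-type tumor 3, at 34.7 and 117.2 CPM against at most 8.6 and 51 CPM elsewhere. Without wild-type tumor 3 the log2 fold change of Pfkm was −0.60 (SE 0.21, adjusted p = 0.0884). In tumor tissue, fewer cells of a type and less RNA per cell cannot be told apart.

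As a share of the summed TPM of the 3 phosphofructokinase genes, Pfkp made up 10.9, 9.42, 10.1 and 6.93% in wild-type tumors and 13.6, 22.5, 19.5 and 19.3% in ΔAgo2 tumors. The means were 9.32 ± 1.7% and 18.7 ± 3.72% (SD, n = 4 each), and the groups did not overlap. Pfkl, the liver form, was the main one in all 8 tumors, at 57.0 to 73.8% in wild-type and 58.2 to 68.7% in ΔAgo2 tumors. These shares rest on the same counts as the tests above and were not tested again. They were not corrected for GC content, which was 48.9% for Pfkp, 54.3% for Pfkm and 57.2% for Pfkl, or for trends on length. The Pfkp share was lowest in wild-type tumor 4 (GC slope 0.958) and highest in ΔAgo2 tumor 2 (−0.682). It was 10.9 and 13.6% in wild-type and ΔAgo2 tumors 1, with slopes of −0.058 and −0.003. In wild-type and ΔAgo2 tumors 3, with slopes of −0.176 and −0.265, it was 10.1 and 19.5%. The part of the GC trends in the share was not tested. The TPM of Pfkp by itself overlapped between the groups.

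**Figure D3:**
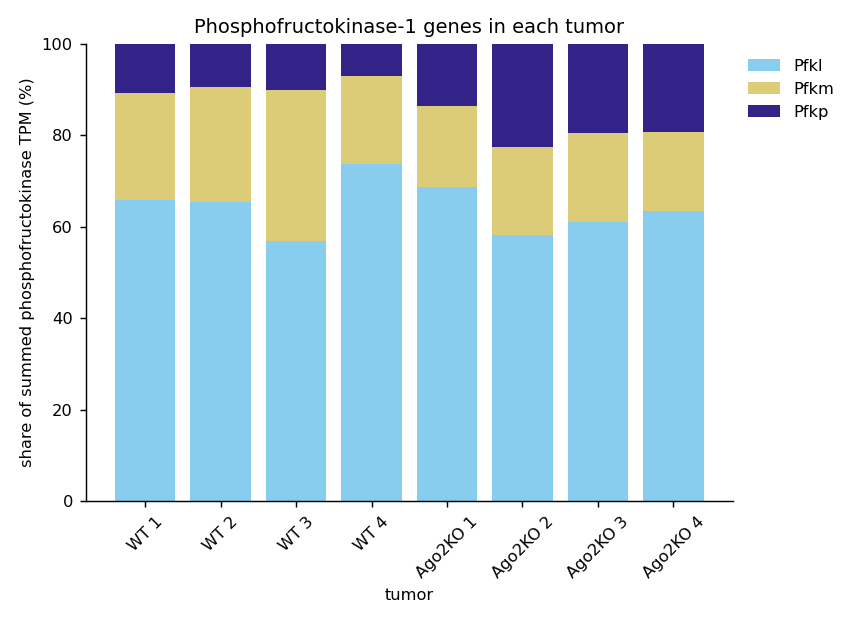
Share of Pfkl, Pfkm and Pfkp in their summed TPM (%) in each tumor, as stacked bars; WT stands for wild type and Ago2KO for ΔAgo2. The Pfkp part covers 6.93 to 10.9% in the wild-type tumors and 13.6 to 22.5% in the ΔAgo2 tumors. The shares are not corrected for the GC trends of the libraries.

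Aldolase splits fructose-1,6-bisphosphate. Its rare brain form, Aldoc, measured 5.43, 4.34, 3.66 and 6.45 CPM in wild-type tumors and 8.78, 7.38, 9.58 and 9.48 CPM in ΔAgo2 tumors. Every ΔAgo2 tumor was above every wild-type tumor, on the TPM scale too. Its log2 fold change was 0.84 (SE 0.26, adjusted p = 0.0904). With the GC trend removed it was 0.99 (SE 0.22, adjusted p = 0.0331), the only member called in that fit, where 4.07% of all genes were called. The Aldoc share of the aldolase TPM was 0.267 ± 0.0632% in wild-type and 0.661 ± 0.132% in ΔAgo2 tumors (SD, n = 4 each), and Aldoa supplied the rest. Aldoa ranged from 1369.7 to 2334.2 CPM in wild-type and from 885.8 to 1679 CPM in ΔAgo2 tumors. The ranges overlapped, with a log2 fold change of −0.46 (SE 0.27, adjusted p = 0.277). The second Aldoa row, a short neighbouring model at chr7:126800790-126809108 on the minus strand, was kept apart and differed by 0.02 (adjusted p = 0.982).

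Enolase acts near the end of the pathway. Eno2, the neuronal form, had the largest absolute log2 fold change of the 36, −1.08 (SE 0.37, adjusted p = 0.110). It measured 8.47, 17.1, 10 and 29.5 CPM in wild-type tumors and 5.97, 8.01, 8.27 and 8.09 CPM in ΔAgo2 tumors. Wild-type tumors 2 and 4 were high, while wild-type tumor 1 lay just above the ΔAgo2 tumors. Without wild-type tumors 2 and 4, which had the steepest GC trends, the log2 fold change was −0.27 (adjusted p = 0.601), and without wild-type tumor 4 alone −0.64. Eno1, the common form, is named because its groups did not overlap on either scale. It measured 2329, 2624, 2190.9 and 3143.7 CPM in wild-type tumors and 1809.7, 1193.6, 1767.6 and 1540.5 CPM in ΔAgo2 tumors. All wild-type tumors were above all ΔAgo2 tumors, with a log2 fold change of −0.70 (SE 0.23, adjusted p = 0.0992). It was −0.45 with the GC trend removed (adjusted p = 0.17).

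Among the most abundant enzymes, Gapdh measured 4301.1, 4280.8, 4112.7 and 4708.5 CPM in wild-type tumors and 3112.4, 2341, 3740.8 and 3146.4 CPM in ΔAgo2 tumors. The groups did not overlap on this scale, and the log2 fold change was −0.50 (SE 0.22, adjusted p = 0.182). With the GC trend removed it was −0.23. Pkm measured 3480.1, 3226.2, 3085.4 and 4302.7 CPM in wild-type tumors and 3530.7, 2270.5, 3032.3 and 2901.7 CPM in ΔAgo2 tumors. These overlapped, with a log2 fold change of −0.26 (SE 0.23, adjusted p = 0.468) that was 0.01 with the GC trend removed. Ldha measured 1817.5, 1072.7, 1985.5 and 1794.6 CPM in wild-type tumors and 2548.5, 1140.1, 1561.5 and 1580.3 CPM in ΔAgo2 tumors. The spread within each group, 405.6 and 596.3 CPM (SD), was far above the difference of the means, and the log2 fold change was 0.03 (SE 0.29, adjusted p = 0.952). Pgk1, the first ATP-yielding kinase of the pathway, had a log2 fold change of 0.39 (SE 0.30, adjusted p = 0.402), which was 0.18 without wild-type tumor 2, 0.64 without wild-type tumor 3 and 0.02 without wild-type tumors 2 and 4. The other enzymes, Hk1, Hk2, Gpi1, Pfkl, Tpi1 and Pgam1, had fold changes between −0.41 (Gpi1) and 0.33 (Hk2), and their groups overlapped.

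**Figure D4:**
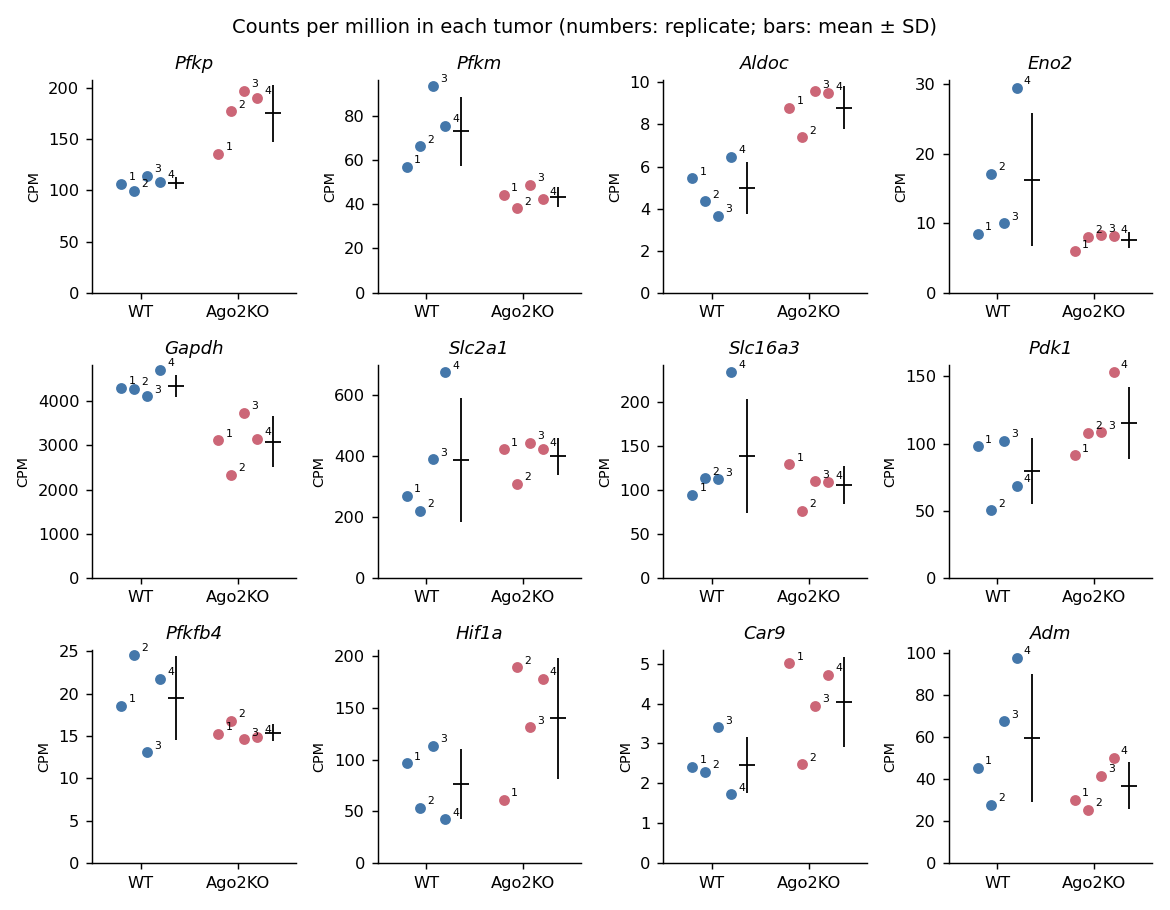
CPM of 12 members in each tumor, with the replicate number beside each point and the mean ± SD (n = 4) as a bar; WT is wild type and Ago2KO is ΔAgo2, and each vertical axis starts at 0. The groups do not overlap for Pfkp, Pfkm, Aldoc, Eno2 and Gapdh and overlap for the other 7 genes, and wild-type tumor 4 is the highest of 8 for Eno2, Gapdh, Slc2a1, Slc16a3 and Adm.

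No transport or control gene had groups that stood apart, and none had an unadjusted p under 0.05. Slc2a1 (GLUT1), which brings glucose into the cell, measured 269.0, 219.3, 388.3 and 673.5 CPM in wild-type tumors and 421.1, 307.4, 442 and 420.9 CPM in ΔAgo2 tumors. Wild-type tumors held both the highest and the lowest values, and the log2 fold change was 0.04 (SE 0.33, adjusted p = 0.951). Slc16a3 (MCT4), which exports lactate, measured 94.3, 113.4, 112.4 and 234.8 CPM in wild-type tumors and 129.4, 76.7, 109.9 and 108.9 CPM in ΔAgo2 tumors. Wild-type tumor 4 was high and the other 7 tumors lay between 76.7 and 129.4 CPM. The log2 fold change was −0.38 (SE 0.30, adjusted p = 0.42), and 0.00 without wild-type tumor 4.

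Pdk1, the kinase that inhibits pyruvate dehydrogenase and so limits the conversion of pyruvate to acetyl-CoA, measured 97.9, 50.4, 101.9 and 68.4 CPM in wild-type tumors and 91.3, 108.1, 108.5 and 153.5 CPM in ΔAgo2 tumors. ΔAgo2 tumor 4 was the highest and ΔAgo2 tumor 1 fell within the wild-type range. Its log2 fold change was 0.53 (SE 0.26, adjusted p = 0.216), the largest in the role group, and 0.29 with the GC trend removed. Pfkfb4, which sets the level of the activator of phosphofructokinase, measured 18.6, 24.6, 13.1 and 21.8 CPM in wild-type tumors and 15.3, 16.8, 14.6 and 14.9 CPM in ΔAgo2 tumors. The ΔAgo2 tumors lay close together within the wild-type range, with a log2 fold change of −0.34 (SE 0.23, adjusted p = 0.352). Pfkfb3 and Slc2a3 had fold changes of −0.12 and −0.02.

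The other hypoxia genes spread evenly to both sides in the edgeR fit, with 7 of 14 above 0. By DESeq2 5 were above 0, and by voom 11. Hif1a, which encodes the regulated subunit of HIF-1, had the largest absolute log2 fold change of the group, 0.87 (SE 0.39, adjusted p = 0.185). It measured 96.4, 53.3, 113.4 and 42.1 CPM in wild-type tumors and 61.1, 189.5, 131.4 and 178.1 CPM in ΔAgo2 tumors. ΔAgo2 tumors 2, 3 and 4 were above all wild-type tumors, and ΔAgo2 tumor 1 was below wild-type tumors 1 and 3. Wild-type tumors 2 and 4, the lowest, were the libraries with the steepest positive GC trend, and Hif1a had the lowest GC content of the 36, 41.0%. With the GC trend removed its log2 fold change was 0.11 (adjusted p = 0.798). The part of the GC trend in the difference was not tested. Voom with quality weights called it (0.85, adjusted p = 0.0315).

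Car9 measured 2.42, 2.29, 3.41 and 1.72 CPM in wild-type tumors and 5.01, 2.48, 3.94 and 4.73 CPM in ΔAgo2 tumors. ΔAgo2 tumor 2 alone fell within the wild-type range. The log2 fold change was 0.69 (SE 0.33, adjusted p = 0.211) and stayed above 0 in all 26 alternatives, from 0.37 to 0.92. Adm, the gene of the vessel-widening peptide adrenomedullin, measured 45.3, 27.6, 67.6 and 98 CPM in wild-type tumors and 30.2, 25.4, 41.6 and 50.1 CPM in ΔAgo2 tumors. Wild-type tumor 4 was the highest, and wild-type tumors 1 and 2 lay within the ΔAgo2 range. Adm had a log2 fold change of −0.69 (SE 0.36, adjusted p = 0.243), and −0.34 without wild-type tumor 4.

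The 3 most abundant genes of the group did not separate the genotypes. Egln3, a prolyl hydroxylase that marks HIF-1α for destruction, measured 285.5, 226, 365.1 and 386.4 CPM in wild-type tumors and 244.9, 226.3, 413.3 and 333.6 CPM in ΔAgo2 tumors. P4ha1, a subunit of the enzyme that hydroxylates collagen, measured 161.1, 125.8, 204.7 and 216.2 CPM in wild-type tumors and 142.7, 186.2, 177.3 and 202.8 CPM in ΔAgo2 tumors. Ddit4 (REDD1), which restrains mTORC1 under stress, measured 64.2, 67.8, 67.2 and 109.2 CPM in wild-type tumors and 53.2, 55.7, 72.2 and 73.4 CPM in ΔAgo2 tumors. In each of the 3 genes the ranges of the groups overlapped, and the adjusted p values were 0.911, 0.994 and 0.445.

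Bnip3, which drives removal of mitochondria, ranged from 20 to 82.7 CPM in wild-type and from 67 to 116.5 CPM in ΔAgo2 tumors, with a log2 fold change of 0.66 (SE 0.37, adjusted p = 0.265). It was 0.39 without wild-type tumor 2, 0.95 without wild-type tumor 3, 0.25 without wild-type tumors 2 and 4 and 0.42 with the GC trend removed. Vegfa, the main signal for vessel growth, ranged from 54.8 to 133 CPM in wild-type and from 46.4 to 77.7 CPM in ΔAgo2 tumors (adjusted p = 0.375). The remaining hypoxia genes, Egln1, Ndrg1, Ankrd37, P4ha2, Epas1 and Hilpda, had adjusted p values of 0.313 or more. Of the 2 HIF α subunit genes, Hif1a made up 74.2 to 87.6% of their summed TPM in wild-type and 83.8 to 92.2% in ΔAgo2 tumors, and Epas1 the rest.

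Across the 36 members, the highest and lowest values often came from the same tumors. The same was not counted over all genes tested, so these counts cannot be read as particular to the members. Wild-type tumor 4 was the highest of the 8 in 16 members, 7 of them glycolytic enzymes and 7 other hypoxia genes. ΔAgo2 tumor 2 was the lowest in 13 members, 8 of them glycolytic enzymes, and wild-type tumor 2 was the lowest in 10. With the GC trend removed these counts were 4 for ΔAgo2 tumor 2 and 18 for wild-type tumor 2, and wild-type tumor 4 was the highest in 12. ΔAgo2 tumors 3 and 4 were the lowest in 0 members. The summed CPM of the 16 enzymes was 16873.8, 15924.1, 16674.5 and 20769.8 in wild-type tumors and 16562.2, 10632.5, 14883.7 and 13975.2 in ΔAgo2 tumors, so ΔAgo2 tumor 1 lay within the wild-type range. The summed CPM of the 14 other hypoxia genes was 919.3 to 1658.6 in wild-type tumors and 1112.3 to 1542.1 in ΔAgo2 tumors.

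The fold change of a member followed its GC content. The median GC content of the members' transcripts was 53.6%, from 41.0% (Hif1a) to 58.1% (Slc16a3), against 50.2% over the 15906 tested genes with a value. Spearman's correlation of log2 fold change with GC content was −0.571 over the 36 members and −0.572 over those 15906 genes. With the GC trend removed it was −0.102 over the members. These are correlations across genes of the same 8 libraries, and genes are not independent replicates. With the trend removed, fold changes were above 0 in 20 of 36 members instead of 15, and in 10 of 16 enzymes instead of 6.

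**Figure D5:**
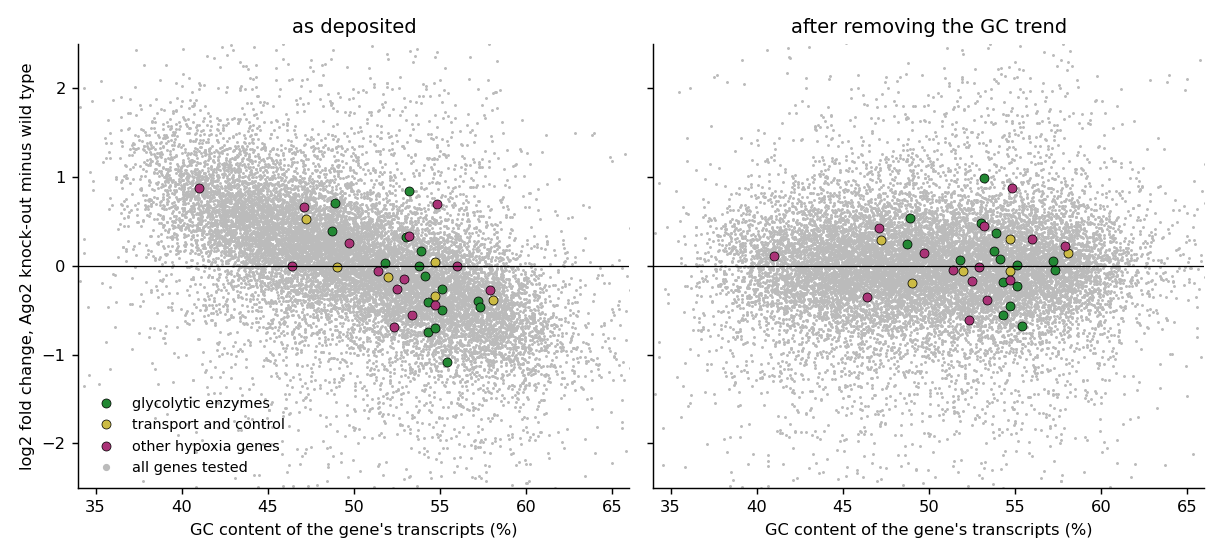
Log2 fold change (ΔAgo2 minus wild type) against the GC content of each gene's transcripts (%), as deposited and after removing each library's GC trend; colored points are the 36 members by role group and grey points all genes tested, of which those beyond the axes are not drawn. As deposited, members and other genes slope downward together (Spearman −0.571 and −0.572). After removal the members show little slope (−0.102), which follows from the removal itself.

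Genes next to the members in the same pathways were read in the same way. Of 32 further genes of glycolysis, of sugar and lactate transport and of pyruvate use, 28 were tested. Of these 0 passed, with a median log2 fold change of −0.31. At an unadjusted p under 0.05 there were 8 (28.6%, against 26.7% of all genes), and DESeq2 called 4 (14.3%, against 14.3%) and voom 9 (32.1%, against 27.9%). Of 7 pentose phosphate genes 0 passed by edgeR or DESeq2 (median −0.37), with 2 at an unadjusted p under 0.05 (28.6%) and 2 by voom (28.6%). Of 17 genes of the TCA cycle 0 passed by edgeR or DESeq2 (median −0.05), with 1 at an unadjusted p under 0.05 (5.88%) and 2 by voom (11.8%). Of 48 further genes of the HIF pathway 47 were tested and 2 passed, or 4.26% against 3.49% of all genes, with a median log2 fold change of −0.13. At an unadjusted p under 0.05 there were 18 (38.3%, against 26.7% of all genes), and 8 were called by DESeq2 (17%, against 14.3%) and 17 by voom (36.2%, against 27.9%). The 2 called by edgeR were 1 higher, where 1.36% of all genes were called higher, and 1 lower, where 2.12% were.

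Stc1, which encodes the secreted glycoprotein stanniocalcin 1, fell in ΔAgo2 tumors. It measured 41.9, 70.7, 75.2 and 37.3 CPM in wild-type tumors and 5.07, 9.0, 7.55 and 10.4 CPM in ΔAgo2 tumors. The highest ΔAgo2 tumor was well below the lowest wild-type tumor. The log2 fold change was −2.81 (SE 0.32, adjusted p = 0.00215), between −3.52 and −2.36 over the 26 alternatives, of which 25 called it.

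Ak4, an adenylate kinase of the mitochondrial matrix, rose in ΔAgo2 tumors. It measured 20.7, 19.1, 21.7 and 21.4 CPM in wild-type tumors and 31, 40.3, 36 and 47.6 CPM in ΔAgo2 tumors. The wild-type tumors lay close together below all ΔAgo2 tumors. The log2 fold change was 0.90 (SE 0.20, adjusted p = 0.0361), and 14 of 26 alternatives called it. Without wild-type tumor 1, 2 or 4 the adjusted p was 0.0562, 0.111 and 0.0657, and without ΔAgo2 tumor 2, 3 or 4 it was 0.115, 0.0852 and 0.146.

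Host cells use glycolysis too, so markers of other cell types were read beside the members. The 8 leukocyte markers summed to 44.4 to 68.8 CPM in wild-type and 78.3 to 125.3 CPM in ΔAgo2 tumors, without overlap, as did those of muscle in the other direction. The summed levels of macrophage, neutrophil, endothelial, fibroblast, keratinocyte, adipocyte, red cell and carcinoma markers overlapped between the groups. Within these lists, 2 genes passed the test. Krt10, a keratin of the upper epidermis, rose in ΔAgo2 tumors (2.06, SE 0.48, adjusted p = 0.046). It was 1 of 8 keratinocyte markers (12.5%, against 3.49% of all genes). All 8 had a fold change above 0 (median 1.37), 3 of them without overlap (37.5%, against 16.4% of all genes). Vwf, the von Willebrand factor gene of endothelium, fell (−1.09, SE 0.26, adjusted p = 0.0466). It was 1 of 8 endothelial markers (12.5%), whose median was −0.04. Krt10 was called in 14 and Vwf in 12 of 26 alternatives, and Myh2 in 18. Keratinocyte markers were lowest in wild-type tumor 3 (12.6 CPM, against 169.7 CPM or more in the others) and macrophage markers highest in ΔAgo2 tumor 1 (3098.4 CPM, against 2226.6 CPM or less). The part of these cells in the values of the members was not tested.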

How the data were processed

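Bulk RNA-seq of 8 LLC tumors was used. Per the labels, the Illumina Stranded mRNA Prep Ligation kit was used, with paired reads of 100 bp. The authors deposited raw gene counts, whole numbers with no normalization, and TPM values, scaled for gene length and library total. The submitters' processing notes name STAR and mm10, and the paper names featureCounts for its cultured cells. The strand setting and how reads with several possible origins were counted are not given in the sources used here. An annotated gene on the opposite strand overlaps 16 members, whose counts are therefore uncertain. Pseudogene and retrogene copies of 6 members held at most 0.75% of the member's counts.

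Identifiers were matched to GENCODE M21 on GRCm38 (99.29% of 55487). The titles and genotype labels gave the groups, and the batch label was 1 throughout. In R 4.3.3, edgeR 4.0.16 was run on all genes with filterByExpr, TMM scaling and its quasi-likelihood test, without covariates, and p-values were adjusted by Benjamini-Hochberg, at 0.05. CPM use TMM-scaled totals. The study's methods name DESeq2. Alternatives were DESeq2 1.42.0 (Wald test), limma 3.58.1 (voom with quality weights, or log2(TPM + 1) and log2(TPM + 0.1) of genes that reached 0.5 TPM in 4 libraries, the former also unfiltered), other scalings, no filter or at least 10 counts in every library, thinning, GC and length trends entered as offsets, the replicate number as a block, copies added, and leaving out each library. Depth was 7903288 to 268564145 counts per library, and p-values measure the spread between tumors of a group. A count of 0 allows up to 3 counts, for counting error only.

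On counts simulated for this comparison over 15801 genes, the procedure recovered 72% of genes changed by 2 on the log2 scale and 6.06% of those changed by 1. It made 1 false call among 79. The simulated counts carried no GC or length trend, so these rates need not hold for the libraries here. Tumor values are given for members past the threshold and, in each role group, for the 3 of largest absolute fold change and the 3 of highest TPM. Values in every tumor of Pfkp and Eno1 were added after they were seen. Of genes outside the 36, those of the pathway and marker lists past the threshold, the most abundant muscle marker and Ago2 were named by rule, and Pgam2, Eno3, Krt8, Krt18 and Nkx2-1 after their values were seen. The members and gene lists were chosen with earlier results of these data known.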

Additional observations from a re-analysis of the deposited data

Results flagged for a closer look

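In 7 of 72 groups of 4 tumors (36 members in 2 genotypes) a tumor stood apart from the other 3 of its group. The gap, as a share of the group's range, was past Dixon's 95% limit for 4 samples. About 3.6 are due by chance if values are normal and groups independent, but the groups share the same libraries. The share over all genes tested was not counted. Wild-type tumor 4 was high in 4 of the 7 groups. Gpi1, which converts glucose-6-phosphate to fructose-6-phosphate, was at 1437 CPM there against 942 to 1023.1 CPM in the other wild-type tumors. Pfkl was at 576.1 CPM against 321.8 to 344.2 CPM. Slc16a3 was at 234.8 CPM against 94.3 to 113.4 CPM. Ddit4 was at 109.2 CPM against 64.2 to 67.8 CPM. With each library's GC trend removed, the gaps of these 4 genes were 0.49, 0.667, 0.352 and 0.768 of the range, all under the limit. ΔAgo2 tumor 1 was low in Eno2, at 5.97 CPM where the rest of its group had 8.01 to 8.27 CPM, and in Pfkfb3, which sets the activator of phosphofructokinase, at 14.2 CPM against 25.4 to 25.8 CPM. Both gaps remained past the limit with the GC trend removed (0.911 and 0.994). ΔAgo2 tumor 2 was low in Slc2a1, at 307.4 CPM against 420.9 to 442 CPM, with a gap of 0.483 once the GC trend was removed.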

How the results depend on the processing

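The number of members called, 0, was 5 by DESeq2 (all glycolytic enzymes: Pfkp, Pfkm, Aldoc, Eno1 and Eno2) and 6 by voom with quality weights, 5 of them enzymes and 1 another hypoxia gene (Pfkp, Pfkm, Aldoc, Eno1, Hk2 and Hif1a). It was 1 with the GC trend removed (Aldoc), 1 with the length trend removed (Pfkm), 1 after thinning to the shallowest library (Pfkm) and 1 with both trends removed (Aldoc), an alternative chosen after seeing the data. Leaving out each library gave 0 to 2 members. The other glycolytic genes gave 4 calls by DESeq2, 9 by voom, 1 with no count filter, with at least 10 counts in every library or after thinning, 3 with the length trend removed, 2 with both trends removed and 0 to 3 when a library was left out. The other HIF pathway genes, 2 called, gave 8 by DESeq2, 17 by voom, 4 with no filter, 1 after thinning, 1 without the 2 wild-type libraries of steepest GC trend (also chosen after seeing the data) and 1 to 4 when a library was left out. Pentose phosphate genes gave 2 by voom, and TCA cycle genes 2 by voom, 1 with both trends removed and 0 to 1 when a library was left out.

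Over all genes, 560 calls became 2292 by DESeq2, 4476 by voom, 983 with no filter, 1178 with the length trend removed, 1057 with both trends removed and 100 without the 2 wild-type libraries. On the TPM scale they were 153 for log2(TPM + 1), 107 for log2(TPM + 0.1) and 77 with no filter, and when a library was left out 88 (without ΔAgo2 tumor 4) to 1793 (without ΔAgo2 tumor 1). The replicate number as a block gave 70 calls over all genes, 0 members and 1 other HIF pathway gene, and 365 with the GC trend also removed. Nothing in the labels says that equal numbers are pairs, so the block was an alternative only. Same-numbered tumors correlated at −0.29 to 0.103, and no wild-type tumor correlated best with the ΔAgo2 tumor of its number.

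The median of the enzymes, −0.19, was 0.06 with the GC trend removed, with or without the block or the length trend, and 0.01 in the fits to TPM, which moved the median of all genes from 0.04 to 0.21 for log2(TPM + 1). Leaving out a library gave −0.34 to −0.07. The median of transport and control, −0.07, was −0.3 with the length trend removed, 0.13 in the fits to TPM and −0.18 to 0.02 when a library was left out. That of the other hypoxia genes, −0.02, was 0.12 by voom, 0.19 in the fits to TPM and −0.15 to 0.09 when a library was left out. The sign of the fold change was kept under all 26 alternatives in 20 of 36 members, and the other 16 had absolute log2 fold changes of at most 0.44. Among genes named with a fold change, Pkm became 0.01 with the GC trend removed, with or without the block, and 0.02 with both trends removed. Ldha became −0.02 with upper quartile scaling, −0.19 by voom, −0.01 after thinning, −0.13 without the 2 wild-type libraries and −0.23 to 0.18 when a library was left out. Slc2a1 became −0.02 with upper quartile scaling, −0.03 after thinning and −0.15 to 0.46 when a library was left out. Slc16a3 became 0.15 with the GC trend or both trends removed, 0.17 with the block as well, 0.06 without the 2 wild-type libraries and −0.52 to 0.00 when a library was left out. The causes of these changes were not tested. Stc1 missed the threshold only for log2(TPM + 1) with no filter (−2.36, adjusted p = 0.0941, limma). Depth limits Car9, Aldoc and Ankrd37 most, since wild-type tumor 4 holds few counts of them.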
